A study of Homo sapiens with 12 samples.

Results

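FOXO transcription factors and 7 genes linked to FOXO activity or growth arrest were examined in lung cancer cells held under EGFR and MEK inhibition. The 10 genes are FOXO1, FOXO3, FOXO4, HBP1, YPEL3, RBL2, CCNG2, BTG1, PIK3IP1 and IRS2. Each was taken from the 57905 genes of the deposited expression table by its symbol, and each symbol gave 1 entry. RNA was measured by sequencing of stranded mRNA libraries from PC9, HCC827 and HCC4006, established human lung cancer lines whose EGFR gene carries an activating mutation. Dormant cells had been kept for 2 weeks in 100 nM osimertinib, an EGFR inhibitor, and, to block MEK, 30 nM trametinib. DMSO cells of the same lines had received the solvent alone for 24 hours. The labels also give a wider dish for dormant cells, so drug, duration and dish cannot be told apart. Each line and treatment has 2 libraries, 12 in all, and nothing says that a pair came from separate cultures. P-values therefore measure only the spread between these samples, which may be technical.

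FOXO proteins are forkhead transcription factors that the kinase AKT phosphorylates and keeps out of the nucleus when growth factor receptors activate PI3K. When that signal drops, FOXO proteins enter the nucleus and bind genes of cell cycle arrest, autophagy and stress resistance. Their activity is set largely by this phosphorylation, which RNA levels do not measure. HBP1, YPEL3, RBL2, CCNG2, BTG1, PIK3IP1 and IRS2 have each been linked to FOXO activity, to growth arrest or to both. EGFR, the receptor blocked here, is one of the receptors that feed the PI3K pathway.

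All levels below are FPKM, fragments scaled to transcript length and library size, as the authors computed them. Unless 2 lines are named, a difference subtracts DMSO from dormant after conversion to log2(FPKM + 1). Values after ± are SE, and this scale understates the change of genes near or below 1 FPKM. A gene was tested with limma where 2 or more libraries held 1 FPKM or more, which left 14699 genes and 7 of the 10 described here. FOXO1, FOXO4 and IRS2 stayed below this filter, and IRS2 reached 1 FPKM in 1 dormant library. The 7 tested genes would also have passed on their DMSO libraries alone. Some genes of the further lists below, among them INSR, PIK3R1, YPEL2, ULK1 and BCL6, passed only through dormant libraries. The shares of those lists that rose are therefore descriptions. A gene is said to have risen or fallen only where its p-value, adjusted by Benjamini-Hochberg over all tested genes, was under 0.05.

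The promoters of these genes were searched for short forkhead motifs, because FOXO proteins bind such letters and several of the genes are described as FOXO targets. Windows ran from 250 bases before to 50 bases after each RefSeq start site on GRCh38.p14, and all 10 genes had at least 1 window. The forkhead core GTAAACA, read on both strands and so also as TGTTTAC, lay in a window of FOXO4, HBP1, YPEL3, BTG1 and PIK3IP1. That is 5 of 10 genes, beside 4.19% of 27305 genes in the whole table of windows. The insulin response element core CAAAACA, also read as TGTTTTG, lay in the window of IRS2 alone, beside 6.05% of genes. The motifs were picked with these sequences in view, so the shares are descriptions and were not tested. A match is a run of letters and no evidence of binding. The stretches that hold them follow, 5′ to 3′ on the gene's own strand, with the motif in capitals.
FOXO4: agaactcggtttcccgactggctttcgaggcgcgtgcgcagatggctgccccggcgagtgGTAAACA
HBP1: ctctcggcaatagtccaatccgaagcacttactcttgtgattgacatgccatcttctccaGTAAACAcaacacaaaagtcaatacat
YPEL3: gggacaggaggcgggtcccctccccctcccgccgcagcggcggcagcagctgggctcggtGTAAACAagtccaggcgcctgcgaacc
BTG1: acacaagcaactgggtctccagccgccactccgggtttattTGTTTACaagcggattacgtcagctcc
PIK3IP1: ctaaagagaggcTGTTTACcagaacagcat
IRS2: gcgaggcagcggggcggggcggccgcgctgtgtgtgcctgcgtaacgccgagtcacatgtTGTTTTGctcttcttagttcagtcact

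On GRCh38.p14 the FOXO4 stretch is chrX:71095814-71095880 on the plus strand, and its motif starts at position 24, where 1 is the first transcribed base. The HBP1 stretch is chr7:107168770-107168856 on the plus strand, with its motif at -173 from the more upstream of the gene's 2 start sites. The YPEL3 stretch is chr16:30096187-30096273 on the minus strand, and its motif begins at the first transcribed base. The BTG1 stretch is chr12:92146029-92146096 on the minus strand, with its motif at -209. The PIK3IP1 stretch is chr22:31292455-31292484 on the minus strand, with its motif at 17 from the more downstream of 2 start sites. The IRS2 stretch is chr13:109786597-109786683 on the minus strand, with its motif at -40. Neither motif was found in the windows of FOXO1, FOXO3, RBL2 or CCNG2, which says nothing of sites elsewhere.

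A pair of libraries stood apart from their replicates. The second HCC4006 dormant library listed GAPDH at 6.73 FPKM, against 3755.3 to 19644.7 FPKM in the others. Its mitochondrial tRNA came to 20% of all FPKM, where the others had 0.513% to 2.66%, and 1948 tested genes were listed at 0, against 368 to 802. Across tested genes its values correlated with those of its replicate at r = 0.654, and the second HCC827 DMSO library with its replicate at r = 0.909, while the other pairs had 0.979 to 0.991. The summed level of 8 epithelial markers was 976 FPKM in that HCC4006 library and 1257 FPKM in that HCC827 library, against 5769 to 23836 FPKM elsewhere. PC9 lacked 1 of these 8, NKX2-1, which was listed at 0 in all 4 PC9 libraries, and every other marker reached 1 FPKM in every library. Of 4 leukocyte markers only CD68, which macrophages share with other cells, reached 1 FPKM, and their summed level was 0.14 to 20.7 FPKM in dormant libraries, against 5.18 to 28.99 FPKM in DMSO libraries. The sum of 3 endothelial markers did not exceed 3.05 FPKM. The sum of 5 fibroblast markers was 0.905 to 13.4 FPKM in dormant libraries, against 0.565 to 1.54 FPKM in DMSO libraries. Of these, COL1A1 had a mean of 0.538 FPKM in dormant PC9, 2.76 FPKM in dormant HCC827 and 9.84 FPKM in dormant HCC4006. Its DMSO means were 0.455 to 0.643 FPKM. COL3A1, DCN, LUM and PDGFRB had group means of at most 0.74 FPKM. The part of these markers in the results was not tested. Where leaving out both libraries ended a call of the 7 tested genes or moved their value by over 1.5 times, the value without them is also given. For other genes it is given only in part. That fit leaves 1 library each of dormant HCC4006 and DMSO HCC827. Its p-values in these lines rest on the spread within the other groups.

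HBP1, PIK3IP1, YPEL3 and RBL2 rose in dormant cells in the mean over the 3 lines, and no tested gene of the 10 fell. These 4 are a transcriptional repressor, an inhibitor of PI3K, a growth arrest gene and the pocket protein p130. The tested genes thus held 4 of 7 that rose, against 10.9% of all tested genes, and 0 of 7 that fell, against 4.55%. The median difference of the 7 was 1.51, beside 0.22 over all tested genes. Without the libraries that stand apart it was 1.07, beside 0.20. Median-of-ratios scaling moved the median of all tested genes to 0.03 and split all calls into 1206 higher and 1244 lower, against 1599 and 669 without it, and 4 of the 7 rose under it as well. CCNG2, BTG1 and FOXO3 had positive differences in the mean that did not pass the test. In bulk RNA, a higher level per cell and a larger share of cells with a high level cannot be told apart.

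**Figure D1:**
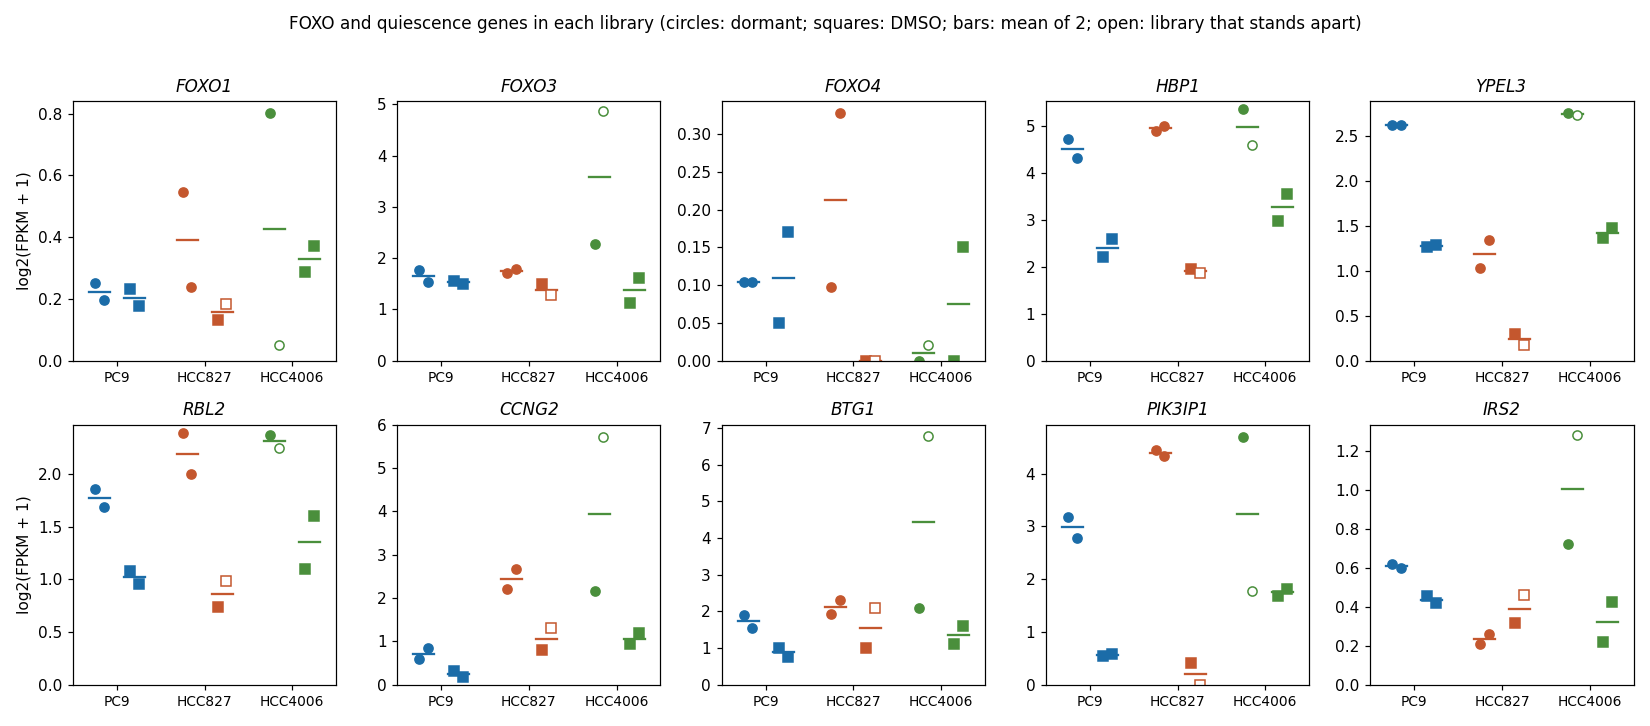
Level of each of the 10 genes in each library, as log2(FPKM + 1) on the vertical axis (own scale per gene), by cell line. Circles are dormant libraries, squares DMSO libraries, horizontal bars the mean of 2, and open symbols the 2 libraries that stand apart. HBP1, YPEL3, RBL2 and CCNG2 have all dormant circles above the DMSO squares of their line in all 3 lines, and the open HCC4006 circle is the highest point for FOXO3, CCNG2, BTG1 and IRS2.

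The FOXO factors themselves were led by FOXO3 (ENSG00000118689), the family member that many tissues express broadly. In PC9, FOXO3 stood at 2.40 and 1.91 FPKM in dormant libraries, against 1.96 and 1.83 FPKM in DMSO libraries. HCC827 had 2.29 and 2.44 FPKM of FOXO3 in dormant libraries, against 1.82 and 1.43 FPKM in DMSO libraries. In HCC4006 the FOXO3 level was 3.83 and 28.5 FPKM in dormant libraries, against 1.20 and 2.08 FPKM in DMSO libraries. Dormant and DMSO values overlapped in PC9 and did not in HCC827 or HCC4006, and the single high value belongs to the HCC4006 library that stands apart. The mean difference was 0.89 ± 0.39 (SE, limma adjusted p = 0.149) with all libraries. Without both libraries that stand apart it was 0.42 ± 0.16 (limma adjusted p = 0.0615). By line it was 0.12 ± 0.68 in PC9, 0.36 ± 0.68 in HCC827 and 2.2 ± 0.68 in HCC4006, none past the test. Without both libraries that stand apart the HCC4006 difference of FOXO3 was 0.89 ± 0.30 (limma adjusted p = 0.0661).

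FOXO1 (ENSG00000150907), the FOXO factor best known from insulin signalling in liver and fat, was low in every library. Its level was 0.19 and 0.145 FPKM in dormant PC9, against 0.175 and 0.13 FPKM in DMSO PC9. HCC827 had 0.46 and 0.18 FPKM of FOXO1 in dormant libraries, against 0.095 and 0.135 FPKM in DMSO libraries. HCC4006 had 0.745 and 0.035 FPKM of FOXO1 in dormant libraries, against 0.22 and 0.295 FPKM in DMSO libraries. Only in HCC827 did both dormant values lie above both DMSO values. There the averaged columns of the first dormant library differed by 0.32 FPKM, more than the gap between the groups. Its mean difference of 0.12 had an adjusted p of 0.630 in a limma fit with no filter.

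FOXO4 (ENSG00000184481), an X-linked member of the family, had a lower mean level than FOXO1 and FOXO3 in each of the 6 groups. It was listed at 0.075 FPKM in both dormant PC9 libraries, against 0.035 and 0.125 FPKM in DMSO PC9. HCC827 had 0.07 and 0.255 FPKM of FOXO4 in dormant libraries, while both DMSO libraries listed it at 0. HCC4006 listed FOXO4 at 0 and 0.015 FPKM in dormant libraries, against 0 and 0.11 FPKM in DMSO libraries. These values are too low for a fold change to be read, and no counts were among the values analysed here to give them an interval. The mean difference of 0.05 had an adjusted p of 0.581 in a limma fit with no filter. FOXO6, the remaining family member, did not exceed 0.02 FPKM.

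FOXO3 supplied most of the FOXO RNA in every library. As a share of the summed FPKM of FOXO1, FOXO3 and FOXO4 it made up 90.0% and 89.6% in dormant PC9, against 90.3% and 87.8% in DMSO PC9. In HCC827 it made up 81.2% and 84.8% in dormant libraries, against 95.0% and 91.3% in DMSO libraries. In HCC4006 it made up 83.7% and 99.8% in dormant libraries, against 84.5% and 83.7% in DMSO libraries. The FOXO3 share was thus lower in both dormant HCC827 libraries than in both DMSO libraries of that line, with FOXO1 or FOXO4 filling the remainder. That remainder rests on at most 0.46 FPKM of FOXO1 and 0.255 FPKM of FOXO4. The FOXO3 level itself was not lower there, at 2.29 to 2.44 FPKM in dormant HCC827, against 1.43 to 1.82 FPKM under DMSO. The copies FOXO3B and FOXO1B, which could share reads with FOXO3 and FOXO1, had at most 0.135 FPKM and a listed 0 in every library.

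**Figure D2:**
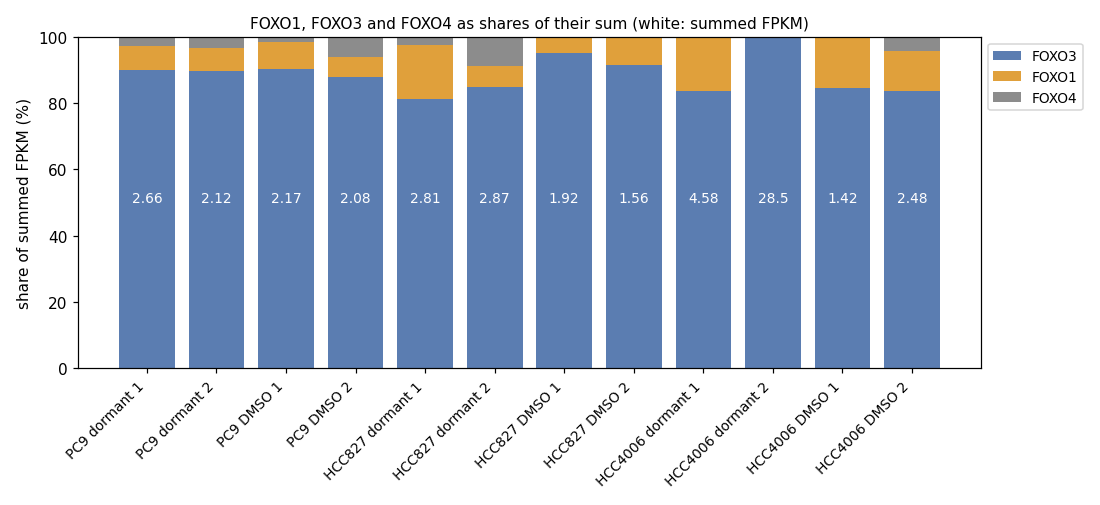
Share of FOXO3, FOXO1 and FOXO4 in their summed FPKM (vertical axis, percent) in each of the 12 libraries. White numbers give the summed FPKM. FOXO3 holds 81.2% to 95.0% in 11 libraries and 99.8% in the second HCC4006 dormant library, whose sum of 28.5 FPKM is the highest.

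PIK3IP1 (ENSG00000100100), a membrane protein that binds and inhibits the catalytic subunit of PI3K, had the largest mean difference of the 10 genes. PC9 had 8.07 and 5.85 FPKM of PIK3IP1 in dormant libraries, against 0.46 and 0.485 FPKM in DMSO libraries. HCC827 had 20.7 and 19.2 FPKM in dormant libraries, against 0.335 FPKM in one DMSO library and a listed 0 in the other. HCC4006 had 24.9 and 2.43 FPKM in dormant libraries, against 2.2 and 2.51 FPKM in DMSO libraries. The groups did not overlap in PC9 or HCC827, and in HCC4006 the dormant library that stands apart fell within the DMSO range. PIK3IP1 rose in the mean by 2.70 ± 0.43 (SE, limma adjusted p = 0.00343) and ranked 54 among the 14699 tested genes, counted from the highest difference. It rose in HCC827 by 4.18 ± 0.75 (limma adjusted p = 0.0138), and the differences of 2.42 ± 0.75 in PC9 and 1.49 ± 0.75 in HCC4006 did not pass the test. The HCC827 call was lost in 3 of 12 fits that each left out 1 library. Without both libraries that stand apart, the mean difference was 3.11 ± 0.16 and that of HCC4006 was 2.95, with a single dormant HCC4006 library left. The opposite-strand gene PIK3IP1-AS1 had at most 0.54 FPKM.

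IRS2 (ENSG00000185950), an adaptor that carries signals of the insulin and IGF1 receptors to PI3K, was below the filter. Its level in PC9 was 0.535 and 0.515 FPKM in dormant libraries, against 0.37 and 0.335 FPKM in DMSO libraries. HCC827 had lower values of IRS2, 0.155 and 0.195 FPKM, in dormant libraries, against 0.245 and 0.375 FPKM in DMSO libraries. HCC4006 had 0.65 and 1.43 FPKM of IRS2 in dormant libraries, against 0.165 and 0.34 FPKM in DMSO libraries. Both dormant values lay above both DMSO values in PC9, as for 35.5% of all tested genes, and in HCC4006, as for 30.4%. In HCC827 both lay below, as for 19.4%. The mean difference of 0.23 had an adjusted p of 0.505 in a limma fit with no filter. Its related adaptor IRS1, which passed the filter, had a mean difference of -0.11 ± 0.25 (limma adjusted p = 0.786), and of -0.33 (limma adjusted p = 0.0493) without the libraries that stand apart.

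HBP1 (ENSG00000105856), an HMG-box repressor of cell cycle genes, had the highest mean level of the 10 genes in every group but dormant HCC4006. BTG1 led there, through the library that stands apart. PC9 had 25.4 and 19.1 FPKM of HBP1 in dormant libraries, against 3.67 and 5.02 FPKM in DMSO libraries. HCC827 had 28.9 and 31.4 FPKM in dormant libraries, against 2.90 and 2.67 FPKM in DMSO libraries. HCC4006 had 40.4 and 23.5 FPKM in dormant libraries, against 6.96 and 10.7 FPKM in DMSO libraries. All 6 dormant libraries lay above all 6 DMSO libraries, and the ratio of mean FPKM was 5.13 in PC9, 10.8 in HCC827 and 3.61 in HCC4006. HBP1 rose in the mean by 2.29 ± 0.26 (SE, limma adjusted p = 0.000627). It rose in PC9 by 2.12 ± 0.44 (limma adjusted p = 0.0372) and in HCC827 by 3.04 ± 0.44 (limma adjusted p = 0.00602). The HCC4006 difference of 1.72 ± 0.44 did not pass the test (limma adjusted p = 0.0511). The PC9 call was lost in 8 of 12 fits that each left out 1 library, and the HCC827 call in 2 of the 12. Exons of HBP1 overlap those of COG5 on the opposite strand, which had 2.59 to 9.76 FPKM, and whether the counting used strand is not given in the sources used here.

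YPEL3 (ENSG00000090238), a small zinc-binding protein linked to growth arrest and senescence, had the smallest SE of the 7 tested genes. PC9 had 5.16 and 5.17 FPKM of YPEL3 in dormant libraries, against 1.41 and 1.45 FPKM in DMSO libraries. HCC827 had 1.05 and 1.53 FPKM in dormant libraries, against 0.23 and 0.13 FPKM in DMSO libraries. HCC4006 had 5.79 and 5.69 FPKM in dormant libraries, against 1.57 and 1.79 FPKM in DMSO libraries. The groups did not overlap in any line, although HCC827 stayed lower than the other lines under either treatment. The library that stands apart in dormant HCC4006 differed from its replicate by -0.02 log2 units for this gene. YPEL3 rose in the mean by 1.21 ± 0.18 (SE, limma adjusted p = 0.00224) and in HCC4006 by 1.33 ± 0.31 (limma adjusted p = 0.0364). The HCC4006 call was lost in 8 of 12 fits that each left out 1 library.

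The YPEL relatives differed in level. YPEL5, a family member that associates with a ubiquitin ligase complex, was the most abundant, with 34.2 to 51.4 FPKM in dormant PC9, against 3.73 to 3.77 FPKM in DMSO PC9. HCC827 had 73.5 to 77.7 FPKM of YPEL5 in dormant libraries, against 8.08 to 11.99 FPKM in DMSO libraries. HCC4006 had 171.8 to 196.1 FPKM in dormant libraries, against 16.8 to 27.2 FPKM in DMSO libraries. YPEL5 rose in the mean by 3.01 ± 0.26 (limma adjusted p = 0.000206) and in each line, by 3.18 in PC9, 2.82 in HCC827 and 3.04 in HCC4006. YPEL2 had a mean difference of 1.40 (limma adjusted p = 0.0906), and 0.76 without the libraries that stand apart. Its mean DMSO level was 0.005 FPKM in PC9, 0.04 FPKM in HCC827 and 0.0675 FPKM in HCC4006. YPEL2 thus passed the filter only through dormant libraries, and its difference is given as a description. YPEL1 and YPEL4 stayed below the filter.

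RBL2 (ENSG00000103479) encodes p130, the pocket protein that joins the DREAM complex to repress cell cycle genes in resting cells. PC9 had 2.62 and 2.22 FPKM of RBL2 in dormant libraries, against 1.12 and 0.94 FPKM in DMSO libraries. HCC827 had 4.23 and 2.99 FPKM in dormant libraries, against 0.67 and 0.975 FPKM in DMSO libraries. HCC4006 had 4.18 and 3.75 FPKM in dormant libraries, against 1.15 and 2.04 FPKM in DMSO libraries. All 6 dormant libraries lay above all 6 DMSO libraries. RBL2 rose in the mean by 1.01 ± 0.19 (SE, limma adjusted p = 0.00798) and passed the test in no single line, where the differences were 0.75, 1.33 and 0.96 (± 0.34) in PC9, HCC827 and HCC4006. Part of its exons overlap AKTIP on the opposite strand, which had 3.82 to 49.8 FPKM.

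Of the other pocket protein genes, RBL1, which encodes p107, was below the filter. RB1, the retinoblastoma gene, had a mean difference of 0.72 ± 0.55 (limma adjusted p = 0.393). By line RB1 differed by -0.04 in PC9, -0.23 in HCC827 and 2.42 in HCC4006. Its dormant HCC4006 libraries had 3.45 and 62.7 FPKM, the higher in the one that stands apart. The size of the RB1 mean difference rests on that library. Of 14 DREAM and RB family genes, 12 were tested, 1 rose, against 10.9% of all tested genes, and 2 fell, against 4.55%, in the mean. The one that rose was TFDP2, a dimerisation partner of E2F factors, with 1.34 ± 0.26 (limma adjusted p = 0.00783). The 2 that fell, FOXM1 with -2.15 ± 0.40 (limma adjusted p = 0.00671) and MYBL2 with -1.86 ± 0.33 (limma adjusted p = 0.00565), are activators of cell cycle genes and not repressor subunits. The median over the 12 was 0.12, beside 0.22 over all tested genes, and -0.02, beside 0.20, without the libraries that stand apart.

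CCNG2 (ENSG00000138764), an unconventional cyclin associated with cell cycle arrest, was low in PC9 and higher in the other dormant lines. PC9 had 0.51 and 0.78 FPKM of CCNG2 in dormant libraries, against 0.24 and 0.13 FPKM in DMSO libraries. HCC827 had 3.60 and 5.31 FPKM in dormant libraries, against 0.73 and 1.46 FPKM in DMSO libraries. HCC4006 had 3.44 and 51.9 FPKM in dormant libraries, against 0.905 and 1.27 FPKM in DMSO libraries. Dormant values lay above DMSO values in every line, and the highest was again that of the HCC4006 library that stands apart, 15.1 times its replicate. The mean difference was 1.58 ± 0.51 (SE, limma adjusted p = 0.0619) with all libraries and 1.07 ± 0.15 (limma adjusted p = 0.000734) without both that stand apart. In HCC4006 the CCNG2 difference was 2.88 ± 0.88 with all libraries and 1.09 ± 0.28 without them, with a single dormant library left. Its relatives CCNG1 and CCNI also peaked in that library, with 219 and 808 FPKM against 30.8 and 34.4 FPKM in its replicate. Without the libraries that stand apart, CCNI had a mean difference of 0.83 (limma adjusted p = 0.0116) and CCNG1 one of -0.07 (limma adjusted p = 0.823).

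BTG1 (ENSG00000133639), an antiproliferative protein of the BTG and TOB family that promotes mRNA deadenylation, had the largest SE of the 7 tested genes. PC9 had 2.75 and 1.90 FPKM of BTG1 in dormant libraries, against 1.01 and 0.685 FPKM in DMSO libraries. HCC827 had 2.81 and 3.95 FPKM in dormant libraries, against 0.98 and 3.23 FPKM in DMSO libraries. HCC4006 had 3.27 and 109.9 FPKM in dormant libraries, against 1.16 and 2.03 FPKM in DMSO libraries. The groups overlapped in HCC827, through the DMSO library that stands apart, and not in PC9 or HCC4006. The mean difference was 1.51 ± 0.66 (SE, limma adjusted p = 0.149) with all libraries and 0.90 ± 0.18 (limma adjusted p = 0.0039) without both that stand apart. In HCC4006 the BTG1 difference was 3.09 ± 1.15 with all libraries and 0.74 ± 0.33 without them, neither past the test. In HCC827 it was 0.58 ± 1.15 with all libraries and 1.13 ± 0.33 without them, with a single DMSO library left.

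Of the BTG1 relatives, BTG2 and TOB1 rose. TOB1 had 114.5 and 168.4 FPKM in dormant PC9, against 19.2 and 14.9 FPKM in DMSO PC9, and its difference there was 2.97 ± 0.52 (limma adjusted p = 0.0158). In the mean TOB1 rose by 1.73 ± 0.30 (limma adjusted p = 0.00505) and BTG2 by 0.90 ± 0.24 (limma adjusted p = 0.0311). BTG3 had a mean difference of -0.17 (limma adjusted p = 0.753), which was -0.60 (limma adjusted p = 0.00814) without the libraries that stand apart, and TOB2 one of 0.33 (limma adjusted p = 0.215). Of 11 relatives of the 10 genes, 8 were tested and 3 rose in the mean, against 10.9% of all tested genes. None was lower, against 4.55%, and the median was 1.15. The 8 include YPEL2, which passed the filter only through dormant libraries. Without the libraries that stand apart 5 of the 8 rose, against 30.0%, and 1 fell, against 12.8%, with a median of 0.72.

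By line, few of the 7 tested genes passed the test. In PC9 1 rose, HBP1, against 1.82% of all tested genes. In HCC827 2 rose, HBP1 and PIK3IP1, against 3.06%. In HCC4006 1 rose, YPEL3, against 4.88%. No gene of the 7 fell in any line, against 0.891% of tested genes in PC9, 1.44% in HCC827 and 1.18% in HCC4006. The median difference of the 7 was 0.84 in PC9, 1.33 in HCC827 and 1.72 in HCC4006, beside 0.05, 0.22 and 0.15 over all tested genes. The HCC4006 median was 1.09, beside 0.31, without the libraries that stand apart.

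**Figure D3:**
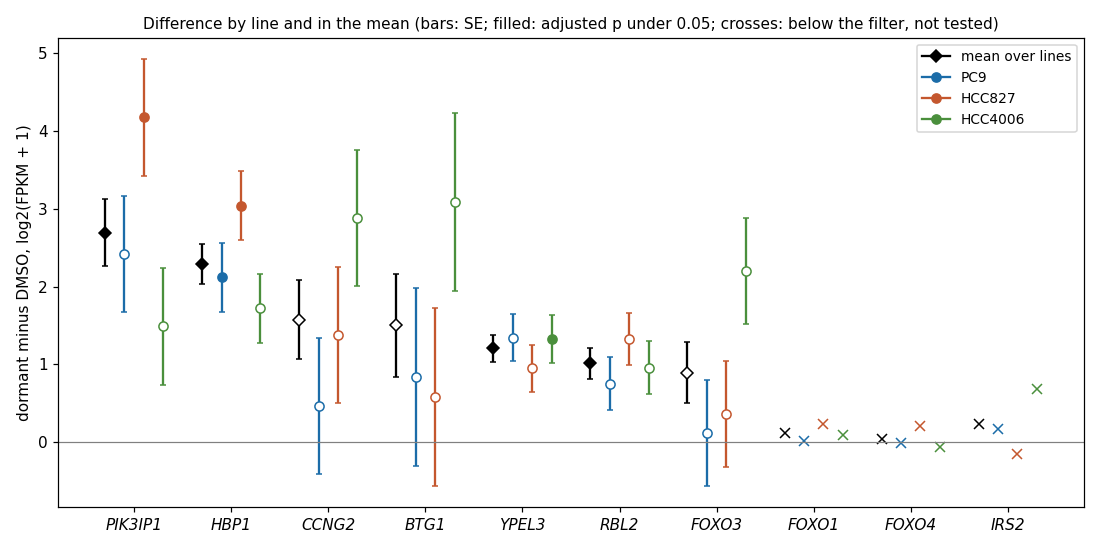
Dormant minus DMSO on the log2(FPKM + 1) scale (vertical axis) for each of the 10 genes, in the mean over lines (diamonds) and in each line (circles). Bars are SE, filled symbols passed the test, and crosses are genes below the filter. PIK3IP1 and HBP1 have their largest difference in HCC827, while FOXO3, CCNG2 and BTG1 have theirs in HCC4006. Without the 2 libraries that stand apart, CCNG2 (1.64 in HCC827, 1.09 in HCC4006) and BTG1 (1.13 and 0.74) have theirs in HCC827.

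Counted by non-overlap, both dormant libraries lay above both DMSO libraries for 6 of the 7 tested genes in PC9, against 35.5% of all tested genes. In HCC827 this held for 6 of 7, against 40.1%, and in HCC4006 for 6 of 7, against 30.4%. HBP1, YPEL3, RBL2 and CCNG2 met it in all 3 lines, 4 of 7 beside 9.12% of tested genes. None of the 7 had both dormant libraries below both DMSO libraries in any line, against 27.0% of tested genes in PC9, 19.4% in HCC827, 15.8% in HCC4006 and 4.43% in all 3 lines.

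Leaving out both libraries that stand apart leaves 1 library in dormant HCC4006 and 1 in DMSO HCC827. It raised the number of genes called in these data as a whole. In the mean 6 of 7 then rose, all but FOXO3, against 30.0% of all tested genes. In PC9 3 of 7 rose, against 13.1%, in HCC827 6 of 7, against 11.1%, and in HCC4006 4 of 7, against 14.9%. None of the 7 fell there, against 12.8% in the mean, 8.65% in PC9, 6.57% in HCC827 and 3.72% in HCC4006. HBP1, PIK3IP1, YPEL3 and RBL2 kept their call in the mean in each of the 12 fits that left out 1 library. A fit that took the 3 lines as the replicates called 2 of all 14699 tested genes and none of these 4. Its limma adjusted p was 0.138 for HBP1, 0.126 for PIK3IP1, 0.239 for YPEL3 and 0.300 for RBL2.

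**Figure D4:**
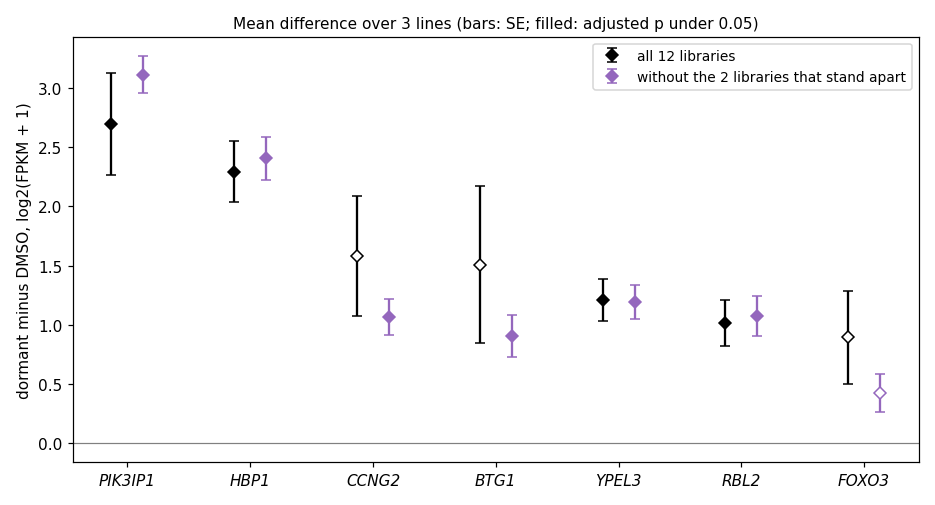
Mean difference over 3 lines on the log2(FPKM + 1) scale (vertical axis) for the 7 tested genes, with all 12 libraries (black) and without the 2 that stand apart (purple). Bars are SE and filled symbols passed the test. CCNG2, BTG1 and FOXO3 move down and gain narrower bars, and CCNG2 and BTG1 then pass.

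Whether the difference between dormant and DMSO cells itself varied between lines was tested with an F test. None of the 7 genes passed (0 also at an unadjusted p under 0.05), against 1.48% of all tested genes, so the order of the lines in any of these differences is not established. Without both libraries that stand apart none passed either (2 at an unadjusted p under 0.05), against 8.92% of tested genes. Without the first HCC4006 dormant library alone, that group holds only the library that stands apart. The HCC4006 differences were then 3.50 for FOXO3, 4.67 for CCNG2, 5.44 for BTG1 and 0.03 for PIK3IP1. Under DMSO none of the 7 differed between lines, against 12% of tested genes, and 2 had an unadjusted p under 0.05. Without the libraries that stand apart 4 did, namely HBP1, YPEL3, CCNG2 and PIK3IP1, against 48.4% of tested genes. Mean DMSO levels of HBP1 were then still ordered as in the full data, highest in HCC4006, then PC9, then HCC827.

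In dormant cells 2 of the 7 genes differed between lines, YPEL3 (limma F test adjusted p = 0.00751) and CCNG2 (limma F test adjusted p = 0.0464), against 31.6% of all tested genes. Without the libraries that stand apart PIK3IP1 (limma F test adjusted p = 0.00117) joined them, 3 of 7 against 62.4%. YPEL3 was 1.56 higher in dormant HCC4006 than in dormant HCC827 (limma adjusted p = 0.0094), a direction called for 11% of tested genes. It differed by -1.44 between dormant HCC827 and dormant PC9 (limma adjusted p = 0.0143), where 4.29% of tested genes were called lower, and by 0.13 between dormant HCC4006 and dormant PC9 (limma adjusted p = 0.773). CCNG2 was 3.22 higher in dormant HCC4006 than in dormant PC9 (limma adjusted p = 0.0219), as were 25.0% of tested genes. The size of that value rests on the library that stands apart, and without both such libraries it was 1.44 (limma adjusted p = 0.00335), with 39.5% of tested genes called higher. Under DMSO the YPEL3 difference was 1.18 between HCC4006 and HCC827 (limma adjusted p = 0.0564) and -1.04 between HCC827 and PC9 (limma adjusted p = 0.0700).

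Genes upstream of FOXO in the PI3K pathway were examined as a further list. Of 22 genes, 21 were tested and 4 rose in the mean, against 10.9% of all tested genes, with none lower, against 4.55%, and a median of 0.33. The 4 were the regulatory PI3K subunits PIK3R3, with 1.51 ± 0.24 (limma adjusted p = 0.00336), and PIK3R1, with 1.20 ± 0.31 (limma adjusted p = 0.0303), the insulin receptor INSR, with 0.99 ± 0.24 (limma adjusted p = 0.0209), and the IGF1 receptor IGF1R, with 0.84 ± 0.22 (limma adjusted p = 0.0322). PIK3R3, PIK3R1 and INSR rose in HCC827, PIK3R3 also in HCC4006, and none of the 4 rose in PC9. INSR had 3.91 and 5.49 FPKM in dormant HCC827, against 0.95 and 0.41 FPKM in DMSO HCC827. No DMSO library of any line exceeded 0.95 FPKM of INSR. PIK3R1 had at most 0.48 FPKM in DMSO PC9 and HCC827, and 0.295 to 1.025 FPKM in DMSO HCC4006. Both genes thus passed the filter only through dormant libraries, so their calls are given as descriptions. Without the libraries that stand apart 8 of the 21 rose, against 30.0%, and 1 fell, against 12.8%.

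Other genes described as FOXO targets formed a further list. Of 23 listed genes, 22 were found by symbol, 17 were tested and 10 rose in the mean, against 10.9% of all tested genes, with none lower, against 4.55%, and a median of 1.03. GABARAPL1, an autophagosome protein of the ATG8 family, had 165.0 and 151.5 FPKM in dormant PC9, against 6.76 and 4.94 FPKM in DMSO PC9. It rose in the mean by 4.15 ± 0.27 (limma adjusted p = 0.000117) and in each line. TNFSF10, which encodes the death ligand TRAIL, rose in the mean by 2.41 ± 0.30 (limma adjusted p = 0.00105), in HCC827 by 3.08 and in HCC4006 by 3.22, while its PC9 difference of 0.92 did not pass. GADD45A, a stress-induced growth arrest gene, rose by 2.30 ± 0.52 (limma adjusted p = 0.0175), with 218 FPKM in the HCC4006 dormant library that stands apart and 16.7 FPKM in its replicate, and by 1.70 (limma adjusted p = 0.00016) without the libraries that stand apart. PINK1, a kinase of mitochondrial quality control, rose by 1.58 ± 0.22 (limma adjusted p = 0.00185). Leaving out the libraries that stand apart, 14 of the 17 rose, against 30.0%, and 1 fell, against 12.8%.

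All 6 listed proliferation genes fell in the mean, against 4.55% of all tested genes, with a median of -2.86. By line 1 of the 6 fell in PC9, against 0.891% of tested genes, 5 in HCC827, against 1.44%, and 2 in HCC4006, against 1.18%. CCNA2 had a difference of -0.16 in HCC4006, where dormant and DMSO values overlapped. All 6 also fell without the libraries that stand apart, against 12.8%. CCNB1 fell by 3.60 on the log2 scale (limma adjusted p = 0.000332), CDK1 by 3.30 (limma adjusted p = 0.000267), PLK1 by 3.24 (limma adjusted p = 0.00525) and TOP2A by 2.48 (limma adjusted p = 0.0189). TOP2A had a difference of 0.10 in HCC4006, where the dormant libraries had 6.79 and 94.1 FPKM, against 16.7 and 35.6 FPKM in DMSO libraries. The value of 94.1 FPKM is that of the library that stands apart, and without both such libraries the difference was -1.71.

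**Figure D5:**
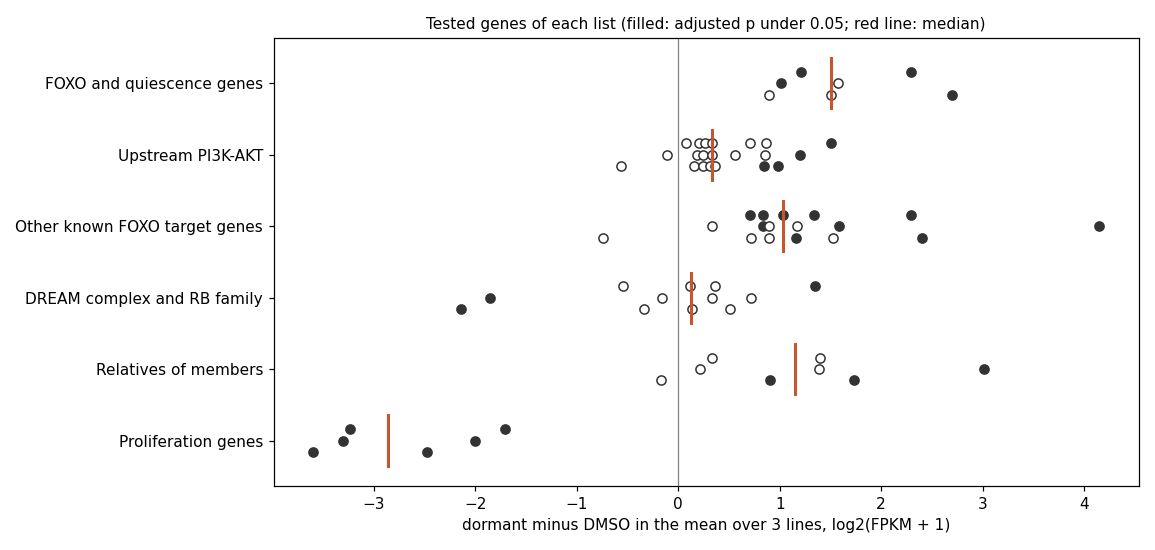
Mean dormant minus DMSO difference over 3 lines on the log2(FPKM + 1) scale (horizontal axis) for the tested genes of each list (rows), 1 circle per gene. Filled circles passed the test and red lines are list medians. The medians are 1.51 for the FOXO and quiescence genes, 1.03 for other FOXO targets and -2.86 for proliferation genes. Without the libraries that stand apart they were 1.07, 0.95 and -3.04.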

How the data were processed

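Values are FPKM per gene, which the authors computed and deposited with 2 decimals. The submitters' processing notes name STAR 2.5.1b, Cufflinks 2.2.1, DESeq2 1.10.1 and hg19/GRCh37, with no role or order. The table has 24 value columns, 2 per library, and what each of a pair holds is not given in the sources used here. Both were averaged and counted as 1 library. No counts were analysed here, so depth is unknown and no counting interval is given. Summed FPKM per library was 793883 to 1159350.

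On log2(FPKM + 1), with 1 coefficient per group, limma 3.58.1 in R 4.3.3 was fitted to 14699 genes (at least 1 FPKM in at least 2 libraries), with a mean-variance trend 6 residual degrees of freedom and 3.84 prior ones. Each gene had 1 spread shared by the 6 groups. Contrasts were dormant minus DMSO per line and in their mean, and F tests between lines. All tests were two-sided, with Benjamini-Hochberg adjustment over tested genes and calls at 0.05. The procedure was tested on simulated data. Tables and figures were made in Python 3.11.15 (matplotlib 3.10.9, numpy 2.4.6, pandas 2.3.3). The 10 genes, the lists and the motifs were chosen with earlier results of these data known. All 10 genes are named, with up to 4 called genes per list, those of largest mean difference in size, and relatives of a described gene. TXNIP, on the list of other FOXO targets, was not found under its symbol. Samples with the same replicate number were not treated as pairs. Promoter windows came from RefSeq on GRCh38.p14, and gene coordinates on the authors' build are not given.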

Additional observations from a re-analysis of the deposited data

Results flagged for a closer look

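The IRS2 difference between dormant and DMSO cells had opposite signs in different lines and passed no test. In HCC827 both dormant libraries lay below both DMSO libraries, with a difference of -0.16 on the log2(FPKM + 1) scale, whereas in PC9 (0.17) and HCC4006 (0.68) both dormant libraries lay above. All levels but one were under 1 FPKM, so IRS2 was not among the tested genes. In a fit without the low-value filter, the limma F test between lines gave an adjusted p of 0.685 for IRS2. Its HCC4006 value includes the dormant library that stands apart, at 1.43 FPKM against 0.65 FPKM in its replicate.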

How the results depend on the processing

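The count of 4 genes higher in the mean was 4 to 6 under the scaling, filter, pseudocount, column and weighting alternatives, the replicate block and without both libraries that stand apart. It ranged from 4 to 7 when 1 library was left out, with 7 without the first HCC4006 dormant library, and was 0 with the lines as replicates. None of the 7 tested genes was called lower under any alternative, and none of the 10 with no filter. In PC9 the count of 1 was 0 with a pseudocount of 0.1, the stricter filter and the replicate block, 2 with no filter, median-of-ratios scaling and quantile normalization, 3 without both libraries and with each line fitted alone, and 5 with array weights (0 to 3 leaving out 1 library). In HCC827 the count of 2 was 0 with the replicate block and each line alone and 6 without both libraries (0 to 5). In HCC4006 the count of 1 was 0 with a pseudocount of 0.1, the stricter filter, median of ratios, quantile normalization, the replicate block, array weights and each line alone, 2 with equal column sums and 4 without both libraries (0 to 6). Genes whose difference varied between lines numbered 0 under every alternative except the fit without the first HCC4006 dormant library. That fit left only the library that stands apart in its group. Genes that varied under DMSO numbered 0, then 1 with a pseudocount of 0.1, no filter, median of ratios, quantile normalization, array weights and the R2 columns only, and 4 without both libraries (0 to 4). Genes that varied in dormant cells numbered 2, then 1 with no filter, median of ratios and quantile normalization and 0 with the replicate block (0 to 5). All tested genes called in the mean numbered 2268, then 1498 with no filter, 1497 with the stricter filter, 6299 without both libraries and 2 with lines as replicates (1025 to 7390). The FOXO3 difference in PC9 became -0.017 under quantile normalization. The background moved as well. All tested genes called higher in PC9 numbered 268, then 381 with median of ratios and 381 with quantile normalization. In HCC4006 they numbered 718, then 338 with median of ratios and 354 with quantile normalization. Such counts are not given here for every alternative, so the moves are not read as results about the 10 genes. The cause was not tested in any of these cases.

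Same-numbered samples deviated together with r = 0.0906 in PC9, 0.0372 in HCC827 and 0.168 in HCC4006. Each value rests on 1 difference per treatment, and in HCC827 and HCC4006 on a library that stands apart. Whether same-numbered samples shared a culture or batch therefore cannot be told. With the replicate block HBP1 in PC9 had an adjusted p of 0.177. Having 2 libraries per group limits the precision, and unknown depth leaves levels under 1 FPKM without an error of their own.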
